A study of Mus musculus with 12 samples.

Results

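Monomethylation of histone H3 at lysine 79 (H3K79me1) was compared between control and AF10-deleted cells on day 4 of reprogramming, in all 4 libraries of that mark among the 12 of the series: control replicates 1 and 2 and Cre replicates 1 and 2. The cells were mouse embryonic fibroblasts with floxed alleles of AF10 (Mllt10), the reprogramming factors OSKM (OCT4, SOX2, KLF4 and MYC) and the doxycycline-responsive activator rtTA. Controls (genotype AF10 fl/fl, OSKM, rtTA) had received an empty adenovirus, and Cre cells (AF10 -/-, OSKM, rtTA) an adenovirus that expresses Cre recombinase from the CMV promoter. Both groups then received doxycycline at 2 µg/mL, starting 2 days after the virus, and grew on DR4 feeder fibroblasts, whose chromatin may be in each library. The other libraries of the series hold H3K79me2 (4) and RNA polymerase II (4, not analysed here).

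DOT1L is the enzyme that methylates H3K79, a residue on the outer face of the nucleosome core rather than on the histone tail, and it adds the methyl groups stepwise. The mono- and dimethylated forms lie over transcribed gene bodies. AF10 binds DOT1L and aids the step towards the higher forms, and DOT1L activity is known to hinder the reprogramming of fibroblasts.

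Peaks had been called in each library separately, and only their positions (mm9) on the 19 autosomes were used. Control replicate 1 listed 0 peaks on the X chromosome. Peaks with a gap of at most 1 kb were joined, and each joined stretch is called a domain. The read depth is unknown, since the lists hold no read counts. No label says that replicates came from separate cultures, so any p-value rests on these libraries alone, whose differences may be technical. Names of the peaks carry the tag A in both replicates 1 and the tag 19 in both replicates 2. What the tags stand for is not given in the sources used here. The lists differ in their shortest peak, at 222 bp (replicate 1) and 107 bp (replicate 2) for control, then 164 bp (replicate 1) and 50 bp (replicate 2) for Cre. No gene annotation of mm9 was used, so regions are given by position, and the fibroblast label was not checked against marker genes.

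With peaks joined within 1 kb, each Cre library held fewer H3K79me1 domains than either control, with a smaller summed length and a smaller median width. Control replicates 1 and 2 held 75981 and 72454 domains, and Cre replicates 1 and 2 held 60770 and 10677. Summed over domains, the length was 156.9 Mb in control replicate 1, 94.6 Mb in control replicate 2, 86.0 Mb in Cre replicate 1 and 2.60 Mb in Cre replicate 2. Median widths followed the same order of libraries, at 570, 439, 393 and 137 bp. For these 3 measures the groups did not overlap, but Cre replicate 1 lay much nearer to control replicate 2 than Cre replicate 2 did. In length and median width, its place below control replicate 2 depended on the joining. In number it was lower without joining too, at 115940 peaks against 155558. The peaks themselves spanned 59.5 Mb in Cre replicate 1 and 53.4 Mb in control replicate 2, with median peak widths of 338 and 256 bp, and the mean domain was 1416 bp wide against 1306 bp. The groups also overlapped in length and median width when only peaks of at least 250 bp were kept, and in number when peaks were joined within 3 kb.

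The long domains were affected most where the list was shortest. Domains of at least 5 kb numbered 8368 and 3799 in control replicates 1 and 2, 3810 in Cre replicate 1 and 5 in Cre replicate 2. Here the groups overlapped, since Cre replicate 1 held slightly more than control replicate 2. At 10 kb and over, control replicate 1 held 3040, control replicate 2 held 691, Cre replicate 1 held 1136 and Cre replicate 2 held 0. Cre replicate 1 therefore held fewer domains than control replicate 2 in all, but more of the longest ones. Domains of at least 5 kb made up 56.2% and 31.8% of the domain length in the controls and 42.5% in Cre replicate 1.

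**Figure D1:**
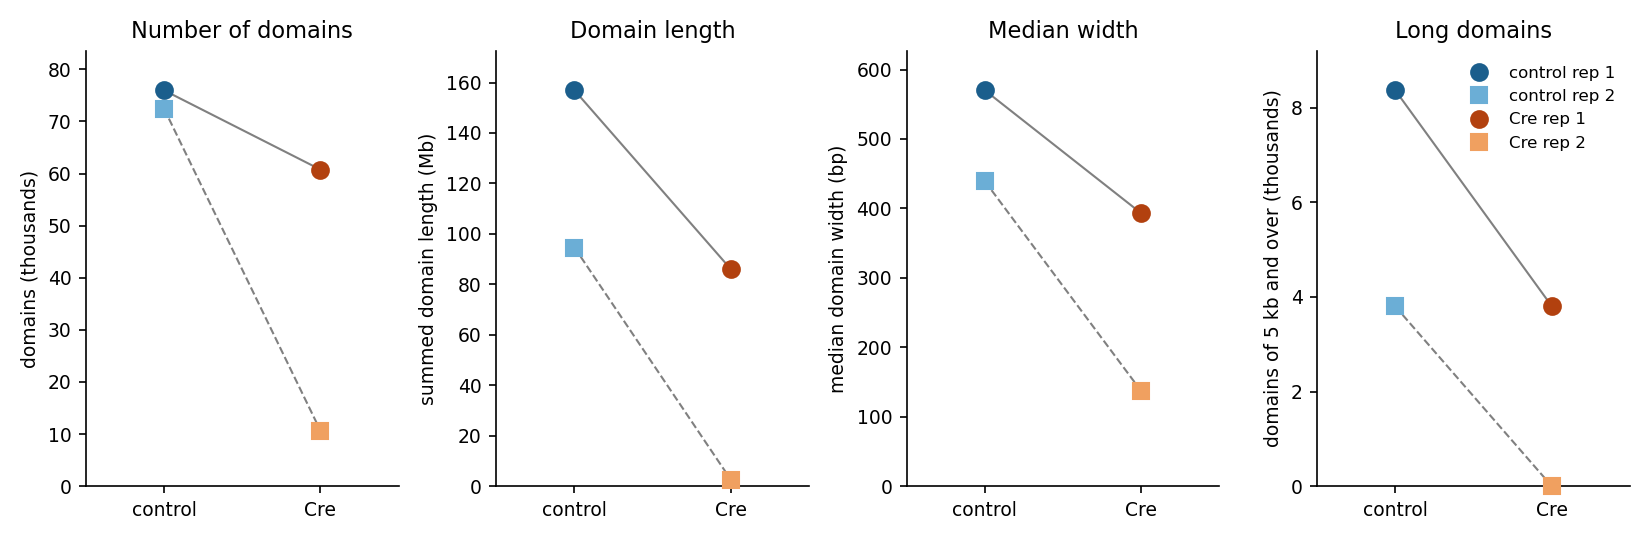
Number, summed length (Mb) and median width (bp) of H3K79me1 domains, and number of domains of at least 5 kb, per library on linear axes from 0. Each point is 1 library (circles replicate 1, squares replicate 2), and lines join libraries whose peak names carry the same tag (solid A, dashed 19); the Cre point is the lower end of all 8 lines.

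On the scale of the groups, the controls averaged 74217.5 ± 2494 domains and the Cre libraries 35723.5 ± 35421 (SD, n = 2 libraries each), a log2 difference of -1.54 between the means of the log2 values. Summed length went from 125.7 ± 44.1 to 44.3 ± 59.0 Mb (SD, n = 2), a log2 difference of -3.03. Median width went from 504.5 ± 92.6 to 265 ± 181 bp (SD, n = 2), a log2 difference of -1.11. For domains of at least 5 kb the log2 difference, with 1 added to each count, was -5.22. Exact two-sided permutation tests over the 6 arrangements gave p = 0.333 for number, length and median width and p = 0.667 for the long domains, with Benjamini-Hochberg values of 0.444 and 0.667 over the 4 tests. The smallest p that 2 against 2 libraries allows is 0.333, so none could pass 0.05. Without Cre replicate 2 the log2 differences were -0.29 in number, -0.50 in length, -0.35 in median width and -0.57 in long domains, and without Cre replicate 1 they were -2.80, -5.55, -1.87 and -9.88.

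Within each tag the Cre library was the lower in all 4 measures. For tag A (replicates 1) the log2 difference of Cre to control was -0.32 in number, -0.87 in length, -0.54 in median width and -1.13 in long domains. For tag 19 (replicates 2) it was -2.76, -5.19, -1.68 and -9.31 in the same order. The controls themselves differed by -0.73 in length (log2, replicate 2 to replicate 1), close to the tag A difference of -0.87. Cre replicate 1 differed from control replicate 2 by -0.14 in length, which is well inside the difference between the controls. The same held for median width (-0.16 against -0.38 between the controls) and long domains (0.0042 against -1.14). In number it did not hold, with -0.25 against -0.07 between the controls.

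The lower domain length was found on every autosome within each tag. For tag A the log2 ratio of Cre to control length was below 0 on 19 of 19 autosomes, with a median of -0.91 and a range from -1.10 on chromosome 18 to -0.72 on chromosome 15. For tag 19 it was below 0 on 19 of 19, with a median of -5.30, from -5.65 on chromosome 13 to -4.66 on chromosome 8. Between Cre replicate 1 and control replicate 2 the median was -0.11, with 17 chromosomes below 0 and 2 above. Chromosomes share their libraries, so these counts are no replication of the difference.

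Domains also differed in how densely peaks filled them. The share of domain length inside peaks was 75.1% for control replicate 1, 56.4% for control replicate 2, 69.2% for Cre replicate 1 and 71.1% for Cre replicate 2. In domains of at least 5 kb the filled share was 73.9% and 50.7% in the controls and 67.1% in Cre replicate 1. A domain held 2.11 and 2.15 peaks on average in the controls, 1.91 in Cre replicate 1 and 1.13 in Cre replicate 2. Most of the domains of each list were a single peak, from 57.4% in control replicate 2 to 89.4% in Cre replicate 2. By filling, Cre replicate 1 was more like control replicate 1 than the controls were like each other.

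The pairs of libraries showed how far the same stretches were called. Control replicates 1 and 2 shared 70.9 Mb of domain, which was 45.2% of replicate 1 and 75.0% of replicate 2. Control replicate 1 and Cre replicate 1 shared 69.0 Mb, which was 44.0% of the control and 80.2% of the Cre list. The Jaccard index, the shared bases over the bases in either list, was 39.3% for the first of these pairs and 39.7% for the other. By this measure Cre replicate 1 overlapped control replicate 1 as much as the other control did. Control replicate 2 and Cre replicate 1 shared 46.8 Mb, 49.5% and 54.4% of their lists, with a Jaccard index of 35.0%.

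Little of any list was found in Cre replicate 2, yet most of Cre replicate 2 was found in every other list. Its domains covered 1.19% of the domain length of control replicate 1, 2.03% of control replicate 2 and 2.22% of Cre replicate 1. In the other direction, 72.0% of its own domain length lay in domains of control replicate 1, 73.8% in those of control replicate 2 and 73.5% in those of Cre replicate 1. Cover alone would give 6.35%, 3.83% and 3.48%. Relative to cover alone, the overlap of Cre replicate 2 was 11.4 times with control replicate 1, 19.3 times with control replicate 2 and 21.1 times with Cre replicate 1.

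Wide domains were found again more completely than narrow ones, between the controls as well as between control and Cre. Of the 45706 domains of control replicate 1 under 1 kb, 13.3% of the length was in domains of control replicate 2 and 13.1% in those of Cre replicate 1. In its 11081 domains of 2 to 5 kb the shares were 38.6% and 33.9%, and in its 3040 domains of 10 kb and over 62.0% and 65.1%. Control replicate 2 thus held more of the length in the 4 classes under 10 kb, and Cre replicate 1 held more in the widest class. Cre replicate 2 held 0.427% of the narrowest class and 1.83% of the widest.

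Seen from control replicate 2, the lists kept their order in all 5 classes. Its domains under 1 kb were found to 50.2% in control replicate 1, 25.3% in Cre replicate 1 and 1.34% in Cre replicate 2. Its 691 domains of 10 kb and over were found to 89.9%, 69.3% and 3.75%. A gap of about this kind is also a gap in what was called, since control replicate 1 held 156.9 Mb of domain and Cre replicate 1 held 86.0 Mb. From the side of Cre replicate 1, 57.3% of the length in domains under 1 kb and 87.5% in its 1136 domains of 10 kb and over lay in domains of control replicate 1. The matching shares in control replicate 2 were 29.8% and 66.2%.

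**Figure D2:**
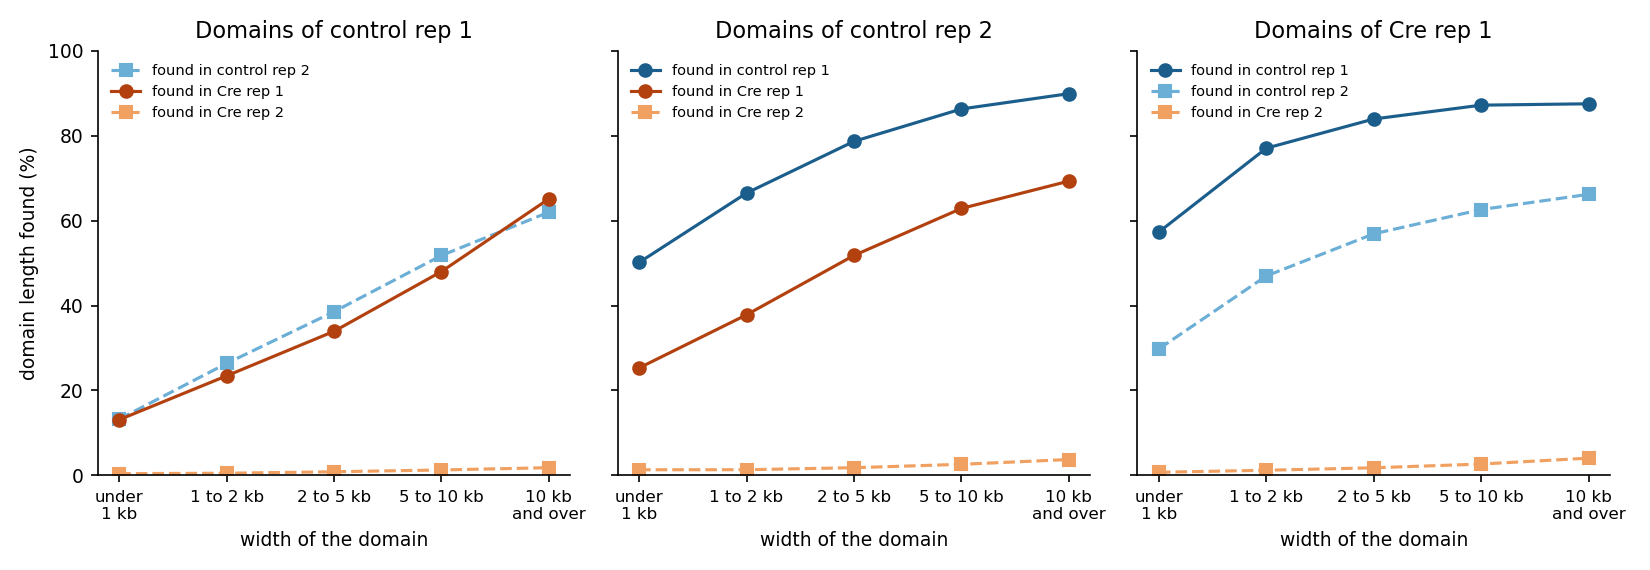
Share of domain length (%) that lay in domains of each other library, by width class of the domain, for the domains of control replicate 1, control replicate 2 and Cre replicate 1. All lines rise with width, those between the 2 controls included, from 13.3% to 62.0% and from 50.2% to 89.9%; those of Cre replicate 2 stay between 0.427% and 4.07%.

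Nearly all wide control domains were touched in Cre replicate 1, often in several pieces. A wide domain has more room for a base of another list, so being touched is partly a matter of width. Of the control replicate 1 domains of 10 kb and over, 99.97% had at least 1 base in a domain of Cre replicate 1, 99.9% in control replicate 2 and 61.3% in Cre replicate 2. The median number of pieces in which such a domain was found was 3 in Cre replicate 1, 4 in control replicate 2 and 1 in Cre replicate 2. Of the domains under 1 kb, 16.9% were touched in Cre replicate 1, 17.9% in control replicate 2 and 1.24% in Cre replicate 2.

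Along long control domains, cover in Cre replicate 1 differed little between edge and middle. In the 8368 domains of at least 5 kb of control replicate 1, peaks of Cre replicate 1 covered 38.1% of the outermost 5% at each side and 39.8% of the middle 10%. Peaks of control replicate 2 covered 27.4% and 33.3% of the same parts. The ratio of middle to edge was thus 1.05 in Cre replicate 1 and 1.21 in control replicate 2, and it was 0.903 in Cre replicate 2 (1.23% and 1.11%). In the first 1 kb outside these domains, where control replicate 1 has no peak by construction, Cre replicate 1 covered 11.5% and control replicate 2 covered 14.2%.

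The 3799 long domains of control replicate 2 gave the same picture for Cre replicate 1. It covered 43.5% of the outermost 5% and 44.5% of the middle 10%, a ratio of 1.02, against 66.4% and 70.5% in control replicate 1, a ratio of 1.06. In Cre replicate 2 the values were 2.45% and 1.83%, a ratio of 0.746.

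**Figure D3:**
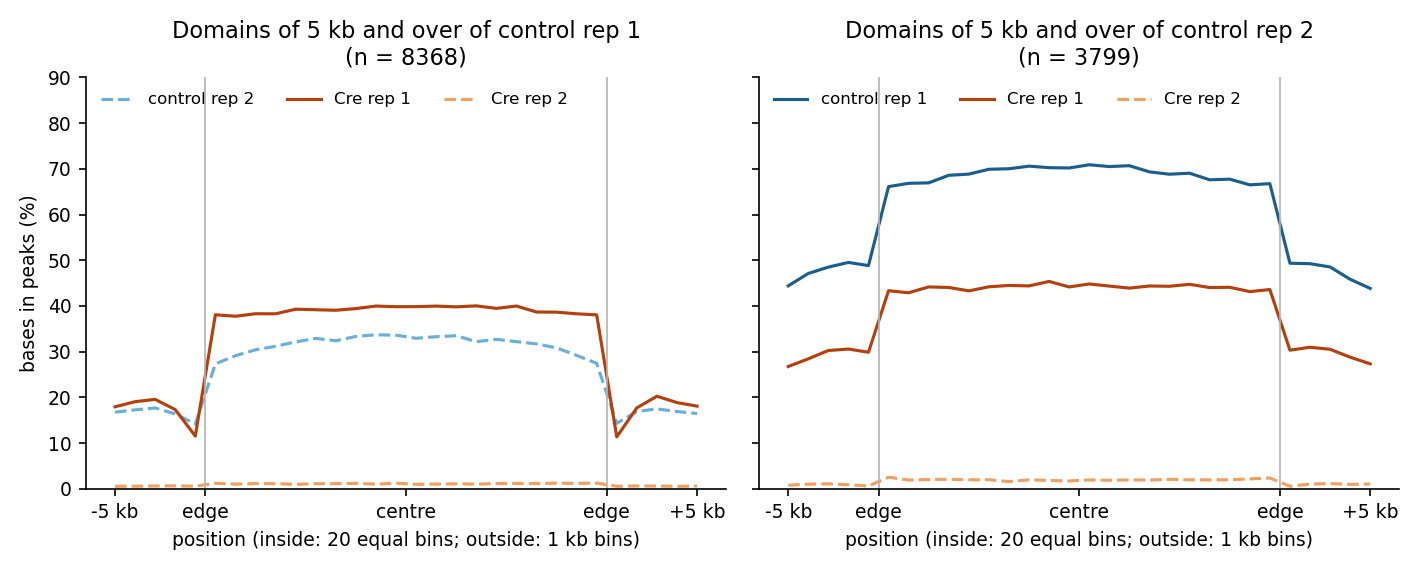
Share of bases in peaks (%) along the domains of at least 5 kb of control replicate 1 (left) and control replicate 2 (right), in 20 equal bins inside the domain and 1 kb bins to 5 kb outside. The library that gave the domains is not drawn. Inside the domains, Cre replicate 1 lies between 37.7% and 40.0% on the left and between 42.9% and 45.4% on the right.

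Stretches inside a domain of both controls numbered 50420 and spanned 70.9 Mb. Domains of Cre replicate 1 covered 59.7% of that length, and those of Cre replicate 2 covered 2.22%. Without control replicate 2 as part of the reference the share in Cre replicate 1 was 44.0%, and without control replicate 1 it was 49.5%. In Cre replicate 1, 19276 stretches (38.2%) had no base in a domain and 14821 (29.4%) were covered to at least 90%. In Cre replicate 2, 44740 (88.7%) had no base and 115 (0.228%) were covered to at least 90%.

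The stretches that were not found were mostly narrow, which is partly built in, since a wide stretch has more room for a base of another list. Of the 29912 stretches under 1 kb, 56.1% had no base in a Cre replicate 1 domain, against 5.28% of the 8544 of 2 to 5 kb and 0 of the 403 of 10 kb and over. In Cre replicate 2 the shares with no base were 96.2%, 76.2% and 24.8%. The share covered to at least 90% in Cre replicate 1 lay between 26.7% (under 1 kb) and 34.0% (2 to 5 kb) in the 5 width classes.

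When the peaks of all 4 libraries were joined, 87071 regions resulted, and those found in all lists were the wide ones. This link is partly built in. Joining peaks of more lists widens a region, and a wider region has more room for a peak of each list. Regions with peaks of all 4 libraries numbered 4924 (5.66%), had a median width of 12.7 kb and made up 39.6% of the joined length. Regions with peaks of both controls and Cre replicate 1 but not Cre replicate 2 numbered 14781 (17.0%), with a median of 3972 bp and 39.3% of the length. Of the 29037 regions with peaks of both controls, 67.9% also had a peak of Cre replicate 1, 17.7% had a peak of Cre replicate 2, and 9116 (31.4%) had none of either. The median width of those 9116 was 1328.5 bp.

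Regions with Cre peaks and no control peak were many in number but narrow. Cre replicate 1 alone or with Cre replicate 2 gave 11007 of them, 29.2% of the regions with a Cre replicate 1 peak, with a median width of 212 bp. By comparison, 27602 regions had peaks of control replicate 1 only, with a median of 302 bp, and 11399 of control replicate 2 only, with a median of 175 bp. Regions with peaks of both Cre libraries and of no control numbered 95, with a median of 768 bp, and 3 of them reached 5 kb.

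Cover of 10 kb windows, the percent of each window inside peaks, compared the libraries at fixed places. Of 247223 autosomal windows, 19777 had a mean cover of at least 10% over the 4 libraries and were tested. Their mean cover was 47.0% (control replicate 1), 22.7% (control replicate 2), 26.0% (Cre replicate 1) and 0.814% (Cre replicate 2). The groups overlapped, since Cre replicate 1 lay above control replicate 2. Of the tested windows, 13240 (66.9%) held no peak of Cre replicate 2, against 324 (1.64%) for Cre replicate 1 and 8 and 111 for the controls. Windows covered to at least 50% numbered 8120 and 507 in the controls, 2480 in Cre replicate 1 and 1 in Cre replicate 2.

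Within the tags most tested windows were lower after Cre, and across them Cre replicate 1 and control replicate 2 were on a par. Cre replicate 1 was below control replicate 1 in 17643 windows (89.2%), with a median difference of -22.4 percentage points. Cre replicate 2 was below control replicate 2 in 19642 (99.3%), with a median of -20.3 points. Control replicate 2 was below control replicate 1 in 18796 (95.0%), with a median of -23.7 points. These shares and medians are partly built in, since windows were kept by their mean cover over all libraries. Windows pass mainly through the libraries with high cover, and Cre replicate 2 averaged only 0.814% in them. Shares for these pairs without the minimum are not given here. Over the full lists, peaks spanned 53.4 Mb in control replicate 2 and 1.85 Mb in Cre replicate 2. Differences in points are bounded by the starting cover, and as a ratio of mean cover control replicate 2 stood at 0.483 of control replicate 1, Cre replicate 1 at 0.553 of control replicate 1 and Cre replicate 2 at 0.0358 of control replicate 2. The gap between the controls was thus about that within tag A and far smaller than that within tag 19. Cre replicate 1 was above control replicate 2 in 10734 (54.3%), with a median of 1.67 points.

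Both Cre libraries lay below both controls in 8941 tested windows (45.2%) and above both in 6 (0.0303%). The imbalance of these counts is largely built in, since Cre replicate 2 was below control replicate 2 in 99.3% of tested windows. Cre replicate 1 by itself was below control replicate 2 in 9039 (45.7%) and above it in 10734 (54.3%). The minimum of 10% mean cover is passed mainly through the controls. Over all 64234 windows with any cover the counts were 18983 (29.6%) and 119 (0.185%), with a median difference of -3.26 points. Only 8409 of those windows held a peak of Cre replicate 2, so the same limit applies there. limma, a linear model with a shared estimate of the spread, called 0 windows (0%) changed in either direction after Benjamini-Hochberg adjustment at 0.05, with 108 at an unadjusted p under 0.05 and a smallest adjusted p of 0.644. With the replicate number as a block, which matches the tags in the peak names, limma called 9886 windows, 9856 lower and 30 higher, but no label says that the numbers pair the libraries. The block fit compares differences in points, whose medians were alike in tags A and 19 (-22.4 and -20.3). As ratios of mean cover the tags were far apart, at 0.553 and 0.0358, so this count does not show a like change in both. The median difference between the group means was -21.5 percentage points, and 96.9% of the differences were negative. Centring each library on its median brought the median difference to 0.62 points and turned the counts to 2855 windows (14.4%) with both Cre libraries lower and 3722 (18.8%) with both higher. Quantile normalization gave -0.51 points, 3782 (19.1%) and 4087 (20.7%). After either scaling limma called windows in the opposite direction only, 83 and 24 in that order, all higher after Cre. Cre replicate 2 had a median cover of 0 and no peak in 66.9% of the tested windows. Centring thus left it unchanged, while control replicates 1 and 2 and Cre replicate 1 lost 44.8, 21.0 and 21.5 points. Quantile normalization met the same empty windows. Calls after scaling are relative to each library, so neither set is read as a rise in cover. Without control replicate 2, limma called 1505 of 20050 windows, all lower, and without each of the other 3 libraries it called 0.

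Windows with more H3K79me1 in a control also held more on average in every other list. In the 2729 windows covered to at least 70% in control replicate 1, the mean cover was 36.3% in control replicate 2, 50.4% in Cre replicate 1 and 1.43% in Cre replicate 2. In the 12737 windows at 10 to 30% the means were 8.05%, 7.63% and 0.232%, so Cre replicate 1 exceeded control replicate 2 in the best covered windows and not in these. Among windows with no peak of control replicate 1 (194743), 97.7% had none of control replicate 2, 96.0% none of Cre replicate 1 and 99.5% none of Cre replicate 2. In the 500 windows at 50 to 70% in control replicate 2, the means were 72.6% in control replicate 1, 50.1% in Cre replicate 1 and 2.89% in Cre replicate 2. Only 7 windows made up the class of 70% and over in control replicate 2.

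**Figure D4:**
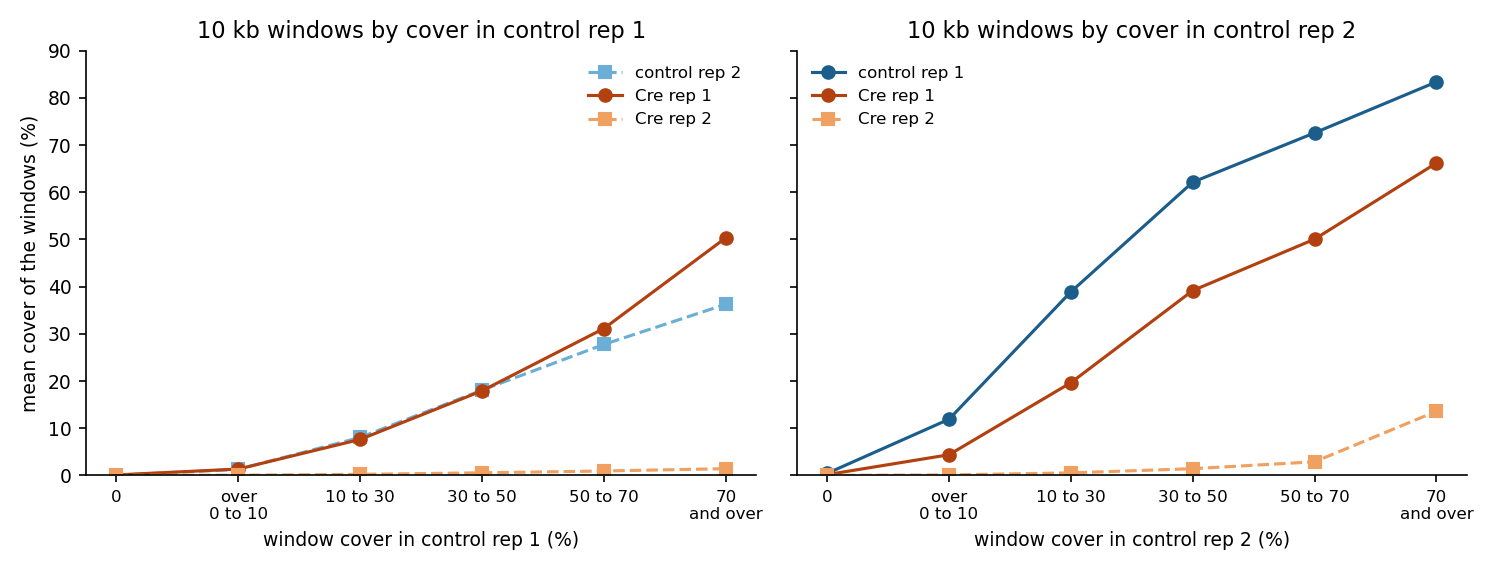
Mean cover (%) of 10 kb windows in each other library, in classes of their cover in control replicate 1 (left) and in control replicate 2 (right). On the left, Cre replicate 1 reaches 50.4% in the highest class and control replicate 2 reaches 36.3%; the last class on the right rests on 7 windows.

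Across all 247223 windows, cover in the controls correlated with Pearson's r of 0.90 (Spearman's rho 0.77). Between Cre replicate 1 and control replicates 1 and 2 it was 0.85 (0.71) and 0.82 (0.73). Cre replicate 2 correlated best with the other Cre library, at 0.50 (0.41), against 0.37 (0.36) and 0.45 (0.42) with control replicates 1 and 2 by Pearson, though by Spearman control replicate 2 came first. These correlations run over windows of the same genome, which share mappability and are not independent, and empty windows are the majority of them.

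H3K79me2 peaks, from 4 libraries of their own, covered more of those control H3K79me1 domains that were found again. No test was made of this, and the domains found again were also somewhat wider, with a median of 15007 against 13066 bp in the first split given here. The H3K79me2 lists were unequal, with 29.5 and 102.0 Mb of domain in control replicates 1 and 2. The Cre replicates 1 and 2 of that mark held 66.0 and 71.6 Mb. H3K79me2 control replicate 1 was the shortest of these lists. Whether its low shares, here and below, come from that was not tested. Among domains of 10 kb and over of control replicate 1, the 2098 of which at least 50% lay in Cre replicate 1 domains were covered by H3K79me2 domains to 23.6% and 73.0% in H3K79me2 control replicates 1 and 2. In the 941 domains found in part but under 50% the shares were 7.45% and 45.3%. In the H3K79me2 Cre libraries the shares were 65.0% and 60.8% in the found domains and 25.8% and 26.7% in the others.

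The same split made with the other control gave the same order. Of those domains, 2232 were found to at least 50% in control replicate 2, with H3K79me2 shares of 22.5% and 71.6% in its controls and 60.3% and 57.2% after Cre. In the 806 found under 50% the shares were 8.96% and 46.3%, and 35.9% and 33.9% after Cre. In narrower domains of 2 to 5 kb, those with no base in Cre replicate 1 (2464) held 0.896% and 10.4% H3K79me2 in its controls and 2.28% and 4.13% after Cre. Domains of that width with no base in control replicate 2 (1570) held 0.970% and 9.52%, and 5.76% and 6.04%.

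Named windows were chosen on their values in these same libraries, so their differences are a description. The largest gap between the lower control and the higher Cre library was at 124180001 to 124190000 on chromosome 5 (mm9). Control replicate 1 covered it to 73.4%, control replicate 2 to 59.5%, Cre replicate 1 to 12.3% and Cre replicate 2 to 0.50%, a mean of 66.5 ± 9.83% against 6.38 ± 8.32% (SD, n = 2). H3K79me2 cover of that window was 3.21% and 27.4% in control and 15.7% and 7.46% after Cre.

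The other 5 windows of this kind lay on chromosomes 1, 7, 11 and 17. At 108130001 to 108140000 on chromosome 1 the controls were at 48.4% and 50.5% and the Cre libraries at 2.52% and 0%. At 53180001 to 53190000 on chromosome 11 they were at 57.3% and 54.9% against 9.69% and 0.50%, and at 97330001 to 97340000 on chromosome 7 at 57.1% and 50.4% against 5.46% and 0%. At 15180001 to 15190000 on chromosome 17, the highest of them in control, they were at 83.7% and 66.5% against 23.2% and 3.21%. At 121720001 to 121730000 on chromosome 1 they were at 60.9% and 50.4% against 7.73% and 0%. The naming rule itself places both Cre libraries below both controls in these windows. The adjusted p by limma was 0.644 in each of the 6.

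Gaps in the other direction were small. The largest was at 67030001 to 67040000 on chromosome 7, with 0% in both controls and 5.75% and 13.2% in Cre replicates 1 and 2. Only 1 of the 6 such windows, at 148890001 to 148900000 on chromosome 6, passed the minimum of 10% mean cover. Its H3K79me1 cover was 0% and 1.07% in control and 34.3% and 5.15% after Cre, while H3K79me2 cover was 26.7% and 49.1% in control and 44.3% and 41.5% after Cre. The dimethyl mark was thus listed there in both groups (limma adjusted p = 0.644 for H3K79me1). The remaining windows started at 14900001 and 104760001 (chromosome 5), 3350001 (chromosome 16) and 33910001 (chromosome 3). They were at 0% in both controls except for 6.91% and 2.72% on chromosome 16, and between 3.75% and 12.9% in the Cre libraries.

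Of the 6 windows best covered in all 4 lists, 4 lay at 1 place on chromosome 8, where the mean cover in the short list of Cre replicate 2 was between those of Cre replicate 1 and the controls. The window at 19880001 to 19890000 was covered to 78.9% and 78.3% in the controls and 52.6% and 63.3% in Cre replicates 1 and 2. At 20010001 to 20020000 the values were 78.6% and 62.6% against 54.4% and 40.4%, at 19780001 to 19790000 they were 52.7% and 40.9% against 33.8% and 38.8%, and at 19680001 to 19690000 they were 30.3% and 51.7% against 20.0% and 31.2%. The stretch from 19480001 to 20290000 is 0.0328% of the windows but held 2.18% of the peak length of Cre replicate 2, against 0.0443% and 0.0937% in the controls and 0.0541% in Cre replicate 1. Mean cover of the stretch was 6.44% and 6.17% in the controls, 3.98% in Cre replicate 1 and 4.98% in Cre replicate 2, where it compares with 0.112% over the whole chromosome. H3K79me2 cover of the window at 19880001 was 49.3% and 55.8% in control and 47.9% and 47.6% after Cre, so this place was well covered in all 8 lists. That stretch was singled out after its values were seen.

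The other 2 windows kept in all lists lay on chromosome 17. At 15120001 to 15130000 cover was 79.3% and 48.0% in control and 59.7% and 25.3% after Cre, near the window at 15180001 named for its gap downward. At 6470001 to 6480000 it was 61.2% and 39.9% against 50.9% and 19.5%.

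**Figure D5:**
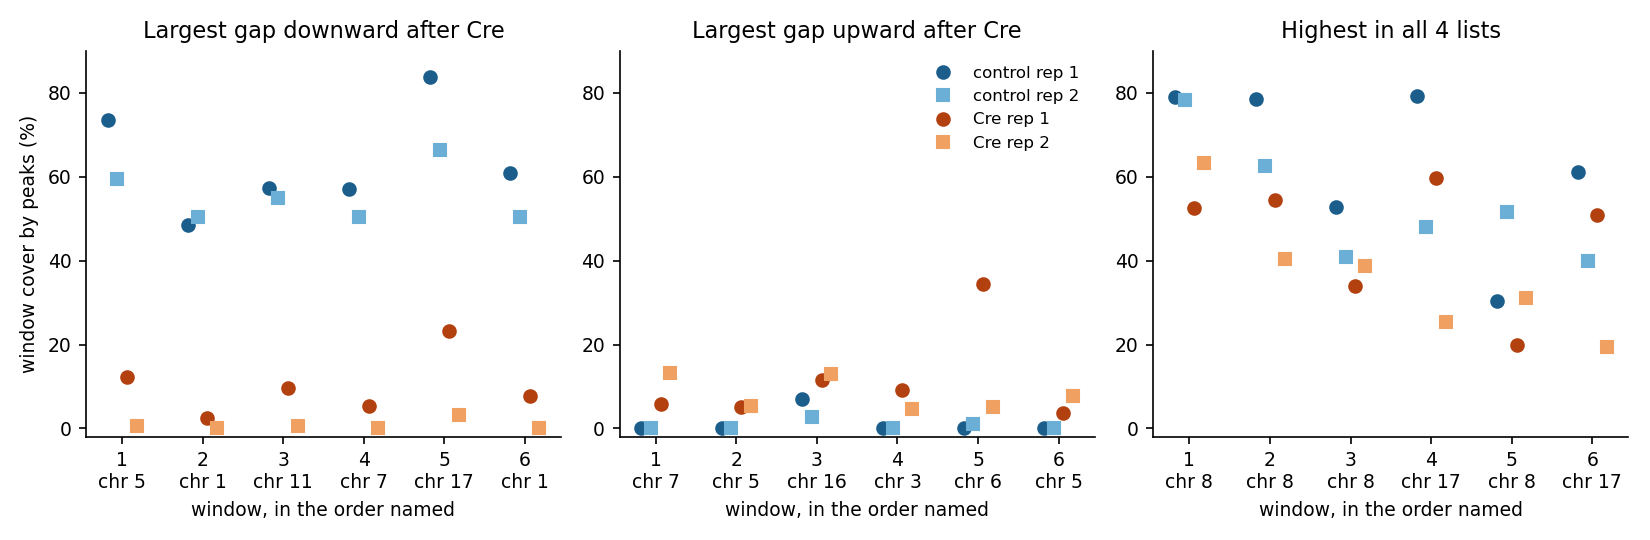
Cover by peaks (%) of the 18 named 10 kb windows in each of the 4 libraries, with 6 windows of the largest gap downward (left), 6 of the largest gap upward (middle) and 6 with the highest value in the lowest of the 4 lists (right). The windows on the left hold both Cre points well below both control points; those in the middle reach 34.3% at most.

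The longest H3K79me1 domains carried over between control and Cre replicate 1. The longest of control replicate 1 spanned 114193 bp on chromosome 2 at 52723284 to 52837476. Domains of control replicate 2 covered 86.4% of it, those of Cre replicate 1 92.6% and those of Cre replicate 2 2.80%. The longest of Cre replicate 1, 68568 bp at 52716812 to 52785379, lay at the same place and was covered to 90.6% and 76.1% in the controls. Its next longest, on chromosome 18 at 83079720 to 83143606, was covered to 87.3% by control replicate 1 and to 57.0% by control replicate 2. For the one on chromosome 11 at 19824493 to 19879391 these shares were 82.7% and 72.8%.

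Of the 5 longest stretches common to the domains of both controls, 4 were covered to 76.7% to 94.9% by domains of Cre replicate 1. The share was 94.3% at 69868743 to 69903312 of chromosome 14 and 76.7% at 95591377 to 95617795 of chromosome 3. It was 85.8% at 52812311 to 52837228 of chromosome 2, next to 94.9% at 61366632 to 61391454 of chromosome 11. The remaining stretch, on chromosome 1 at 133321025 to 133349864, was covered to 56.5%. By peaks it went from 72.8% and 54.3% in the controls to 30.1% and 1.24% in Cre replicates 1 and 2. Its H3K79me2 cover by peaks was 7.30% and 37.0% in control and 21.1% and 19.1% after Cre, lower than in the other 4 stretches in each of the 4 H3K79me2 libraries.

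Stretches common to the domains of all 4 H3K79me1 lists numbered 5430, spanned 1.31 Mb and had a median width of 141 bp. The 3 longest all lay in the chromosome 8 locus, at 19880361 to 19888827, 20007371 to 20013097 and 19789719 to 19793620. The 3 longest domains of Cre replicate 2, of 9815, 9166 and 8790 bp, were in that same locus.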

How the data were processed

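The assay was ChIP-seq on chromatin fragments of 200 to 400 bp. By the labels' protocols, 5 µg of antibody met 7.1 µg of mouse chromatin and a spike-in of 133 ng from the human line 293T. The authors deposited 1 peak list per library, and the peak names hold the words input and broad. The submitters' processing notes name MACS2, HOMER, bedtools, deepTools, SAMtools 1.2 and Bowtie2 without roles, with builds hg19 and mm9. Nothing in the lists records a scaling to the spike-in. Only the deposited peak starts and ends were used. Samples were grouped by title. The gene table at hand is of another build than mm9, so no gene was named and no sequence printed.

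Peaks within 1 kb were merged into domains. Windows of 10 kb tiled the autosomes (2472 Mb up to the last peaks). The cover in percent, computed from the deposited positions, was tested with limma (mean-variance trend, Benjamini-Hochberg at 0.05, no pairing) in windows with a mean of at least 10%. Windows were named by largest gap downward, largest gap upward and highest minimum, 6 each and over 50 kb apart, and domains by length. Members, lists and rules were chosen with earlier results of these data known. Interval functions and the limma fit were tested on simulated data. Software was limma 3.58.1 in R 4.3.3, and Python 3.11.15 with pandas 2.3.3, NumPy 2.4.6, Matplotlib 3.10.9 and SciPy 1.17.1.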

Additional observations from a re-analysis of the deposited data

How the results depend on the processing

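Of 75 alternatives 67 were planned, and 8, the comparisons within a tag, were added after seeing the data. The 4 domain measures stayed lower after Cre in all those run on them, but the window calls turned with scaling. The scaled calls compare cover relative to each library, and most tested windows were empty in Cre replicate 2. They are thus not read as a rise in cover. Centring each library on its median gave 83 windows called by limma and quantile normalization 24, all higher after Cre. The fit of all 4 libraries without scaling or block called 0. With the replicate number as a block, in a fit of differences in points, the count became 9886 of 19777 windows, 9856 of them lower. Whether the numbers pair the libraries is not known. With 2 pairs, the replicate differences of control and Cre correlated at 0.32 over the tested windows. Most of these were empty in Cre replicate 2, so the Cre difference mostly follows the level of Cre replicate 1. The correlation therefore cannot decide the pairing. With each library left out in turn the count ran from 0 to 1505. In those fits the group with 1 library is assumed to vary like the other. The cause of these changes was not tested.

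With each library left out, the log2 difference ran from -2.80 to -0.29 in domain number, from -5.55 to -0.50 in length, from -1.87 to -0.35 in median width and from -9.88 to -0.57 in domains of at least 5 kb. With the 12047 widest peaks of each list the number differed by -0.04 and the length by -1.53, and the groups overlapped in all 4 measures. That is the whole list of Cre replicate 2, set against only the widest peaks of the other lists. Its smaller length and width there are thus largely built in. With peaks of at least 250 bp the number differed by -2.80 and the length by -3.79, with overlap in length, width and long domains. Unmerged peaks gave -2.08 in number, without overlap. They gave -2.92 in length, -0.76 in median width and -1.12 in domains of at least 5 kb, all with overlap. Merging within 3 kb, with overlap in number only, gave -0.98, -2.74, -1.85 and -2.94 in the order number, length, width and long domains. The share of the common control length found in Cre replicate 1 was between 41.6% and 68.2%, and in Cre replicate 2 between 0.818% and 5.44%. Read depth is unknown, so precision rests on the spread between libraries alone.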

Other observations

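Outside the autosomes, the X chromosome held 948 H3K79me1 peaks in control replicate 2, 1876 in Cre replicate 1 and 108 in Cre replicate 2, with 0 in control replicate 1. Adding them left the log2 differences at -1.53 in domain number and -3.02 in domain length.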
